A study of Homo sapiens with 6 samples.

Results

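HLA-DPB1, PRF1 and CTSH are genes of antigen presentation, cell killing and lysosomal proteolysis that were read out in a colorectal carcinoma cell line with and without p21. These 3 genes were chosen from their measured values in the comparison of the lines, so their levels are described here without a test. Every other row of the table whose symbol starts with HLA- or CTS was added by its symbol, which gave CTSG, CTSK and CTSL. The set thus held 6 of the 770 genes measured, with 1 HLA- row and 4 CTS rows.

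RNA came from 3 samples of HCT116 WT cells, a human colorectal carcinoma line, and from 3 samples of HCT116 p21-/- cells, a derivative in which CDKN1A, the gene of the cell cycle inhibitor p21, was disrupted. No treatment was applied to either line, and the samples are labelled as biological replicates. The sources used here do not say how many clones the p21-/- line represents. The deposited labels name RPMI medium for both lines, while the study's methods name DMEM for p21-/- cells, so medium and genotype cannot be told apart if the methods hold. Transcripts were counted with the NanoString PanCancer Progression Panel, in which a probe pair per gene carries a fluorescent barcode. The values are counts normalized by the authors, and probes differ in yield, so levels of different genes are not compared. Low values had been replaced by 1 floor value per sample (25.7 to 34.9), a threshold set 2 SD above the average of its 8 negative controls. CDKN1A itself had 4701 ± 834 normalized counts in WT and 419 ± 37.0 in p21-/- samples (SD, n = 3 each). The spiked-in positive controls had geometric means of 1601 to 1861 counts in WT and 1102 to 1261 in p21-/- samples, and their part in the results was not tested. These are bulk RNA samples, so fewer cells of a type and less RNA per cell cannot be told apart.

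MHC class II molecules are pairs of an alpha and a beta chain that carry peptides from endosomes and lysosomes to the cell surface, where CD4+ T cells read them. They are typical of dendritic cells, macrophages and B cells, and epithelial cells can express them under interferon gamma. HLA-DPB1 encodes the beta chain of HLA-DP. Perforin, the product of PRF1, is stored in the granules of cytotoxic lymphocytes and forms pores in target membranes. Cathepsins are proteases that work mainly in lysosomes. Cathepsins H, K and L are cysteine proteases of the papain type, whereas cathepsin G, encoded by CTSG, is a serine protease of neutrophil granules.

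In RefSeq annotation on GRCh38.p14, HLA-DPB1 lies on chromosome 6 from 33075990 to 33089696, PRF1 on chromosome 10 from 70597348 to 70602741 and CTSH on chromosome 15 from 78921058 to 78945046. CTSK lies on chromosome 1 from 150796208 to 150808260, CTSL on chromosome 9 from 87726119 to 87731469 and CTSG on chromosome 14 from 24573518 to 24576250. All 6 are protein-coding, and the part of each transcript that its probes bind was not analysed here.

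The promoter windows of the 3 chosen genes, and of the cathepsin that moved the other way from CTSH, are shown because their base composition and motif content differ. Each window is the RefSeq sequence from 250 bases before to 50 bases after the annotated start, 5′ to 3′ on the strand of the gene. Capitals mark matches on either strand to the CCAAT box (ATTGG), the GC box (GGGCGG) and the E box CACCTG. The windows are chr6:33075740-33076039 on the plus strand for HLA-DPB1, chr10:70602692-70602991 on the minus strand for PRF1, chr15:78944997-78945296 on the minus strand for CTSH and chr9:87725869-87726168 on the plus strand for CTSL.
HLA-DPB1: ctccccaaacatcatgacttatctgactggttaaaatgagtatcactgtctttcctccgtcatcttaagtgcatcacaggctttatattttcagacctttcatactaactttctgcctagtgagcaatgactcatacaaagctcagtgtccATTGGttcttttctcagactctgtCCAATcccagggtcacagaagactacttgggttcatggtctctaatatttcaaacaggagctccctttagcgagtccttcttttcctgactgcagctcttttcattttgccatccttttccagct
PRF1: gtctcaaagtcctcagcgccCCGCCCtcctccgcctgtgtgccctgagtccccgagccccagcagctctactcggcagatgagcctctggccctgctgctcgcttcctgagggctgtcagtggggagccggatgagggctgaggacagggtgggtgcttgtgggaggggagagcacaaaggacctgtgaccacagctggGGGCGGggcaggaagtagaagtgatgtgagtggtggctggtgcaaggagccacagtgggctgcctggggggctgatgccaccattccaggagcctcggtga
CTSH: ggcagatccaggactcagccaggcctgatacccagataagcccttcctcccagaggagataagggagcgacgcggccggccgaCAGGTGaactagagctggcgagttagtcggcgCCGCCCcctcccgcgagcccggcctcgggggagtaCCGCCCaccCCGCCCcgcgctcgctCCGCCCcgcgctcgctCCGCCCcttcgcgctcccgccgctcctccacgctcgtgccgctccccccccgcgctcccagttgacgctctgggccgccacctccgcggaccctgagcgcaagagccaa
CTSL: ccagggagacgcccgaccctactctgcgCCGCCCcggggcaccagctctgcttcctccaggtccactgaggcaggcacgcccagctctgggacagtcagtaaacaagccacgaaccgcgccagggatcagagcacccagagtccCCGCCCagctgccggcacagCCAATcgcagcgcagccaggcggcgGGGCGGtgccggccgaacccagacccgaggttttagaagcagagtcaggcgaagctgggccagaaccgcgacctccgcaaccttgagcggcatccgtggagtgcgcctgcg

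The HLA-DPB1 window held 2 CCAAT box matches, which began 99 and 75 bases before the start, and no GC box. ATTGG is the core of the Y box, an element known from MHC class II promoters, and 34.6% of all 35116 promoter windows held it on either strand. The CTSH window held 5 GC box matches and 1 E box match, the latter beginning 167 bases before the start. CACCTG is the sequence to which the SNAI and ZEB repressors are known to bind, and 20.6% of all windows held it. PRF1 had 2 GC box matches and CTSL had 3 with 1 CCAAT box match, and the GC box was in 45.0% of all windows. No marked match overlapped another. The GC content was 42.3% for HLA-DPB1, 65.7% for PRF1, 73.3% for CTSH and 69.0% for CTSL, against a median of 58.7% over all windows. Neither CACGTG, the core of the lysosomal gene element, nor TTCNNNGAA, the interferon gamma element, was found in these 4 windows, and 7.26% and 7.66% of all windows held them. Promoter windows were at hand for 5 of the 6 genes, and CTSK had none here although RefSeq annotates it.

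HLA-DPB1 was near the background in WT cells and well above it in p21-/- cells. The WT replicates 1, 2 and 3 gave 52.7, 59.5 and 66.7 normalized counts. Those of p21-/- cells gave 368, 392 and 419. Every p21-/- sample was thus above every WT sample. The means were 59.7 ± 6.96 and 393 ± 25.8 normalized counts (SD, n = 3 each), which is 6.59 times higher in p21-/- cells, with a log2 difference of 2.70 (standard error 0.161). It ranked seventh from the highest among the fitted differences of the 770 genes, but genes at the floor in WT, such as WNT5A, have only a lower bound and could lie above it. Before normalization these values were 35, 53 and 57 barcode counts in WT and 341, 431 and 474 in p21-/- samples. The highest negative control of the WT samples reached 26 to 30 counts, so the WT level lay close above what a probe without a target gave. When the mean of the negative controls was subtracted, a setting chosen after seeing the data, the log2 difference was 3.23. Signal from related transcripts of the HLA-DP region was not separated from that of HLA-DPB1.

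PRF1 showed the opposite order. The WT replicates 1, 2 and 3 gave 105, 157 and 203 normalized counts, and those of p21-/- cells gave 50.7, 54.6 and 52.2. The lines did not overlap, but the WT samples were far apart among themselves whereas the p21-/- samples were almost level. The means were 155 ± 49.0 and 52.5 ± 1.97 normalized counts (SD, n = 3 each), so p21-/- cells had 33.8% of the WT level, with a log2 difference of -1.50 (standard error 0.213). This standard error is pooled over both lines and moderated over all genes in limma, so it does not show the wider WT spread. The SD of PRF1 among WT samples was 0.47 on the log2 scale, larger than that of 96.6% of the 446 genes that were above the floor in all 6 samples. Counting error alone gives 95% Poisson intervals of 82.2 to 133 normalized counts for WT replicate 1 and 174 to 236 for WT replicate 3, which do not meet. In p21-/- cells PRF1 was measured at 47, 60 and 59 barcode counts, where the negative controls averaged 18.8 to 21.4 counts. Without WT replicate 3 the log2 difference of PRF1 was -1.28, and without WT replicate 1 it was -1.75.

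CTSH had the lowest fitted log2 difference of the panel (-5.52), a rank that rests on floor values, since PROM1 was also at the floor in every p21-/- sample and both have only a bound. Cathepsin H trims amino acids from the ends of peptides, and is one of the enzymes known to activate progranzyme B. The WT replicates 1, 2 and 3 gave 1293, 1301 and 1737 normalized counts, and every p21-/- sample held only its floor value. In WT replicates these were 858, 1158 and 1485 barcode counts, 60.2 to 88.7 times the mean of the negative controls. Since the p21-/- level has only an upper limit, CTSH was at least 46.3-fold lower there, with each p21-/- sample set to its floor, read either before or after normalization, whichever was higher. The p21-/- level itself was hidden by the floor.

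**Figure D1:**
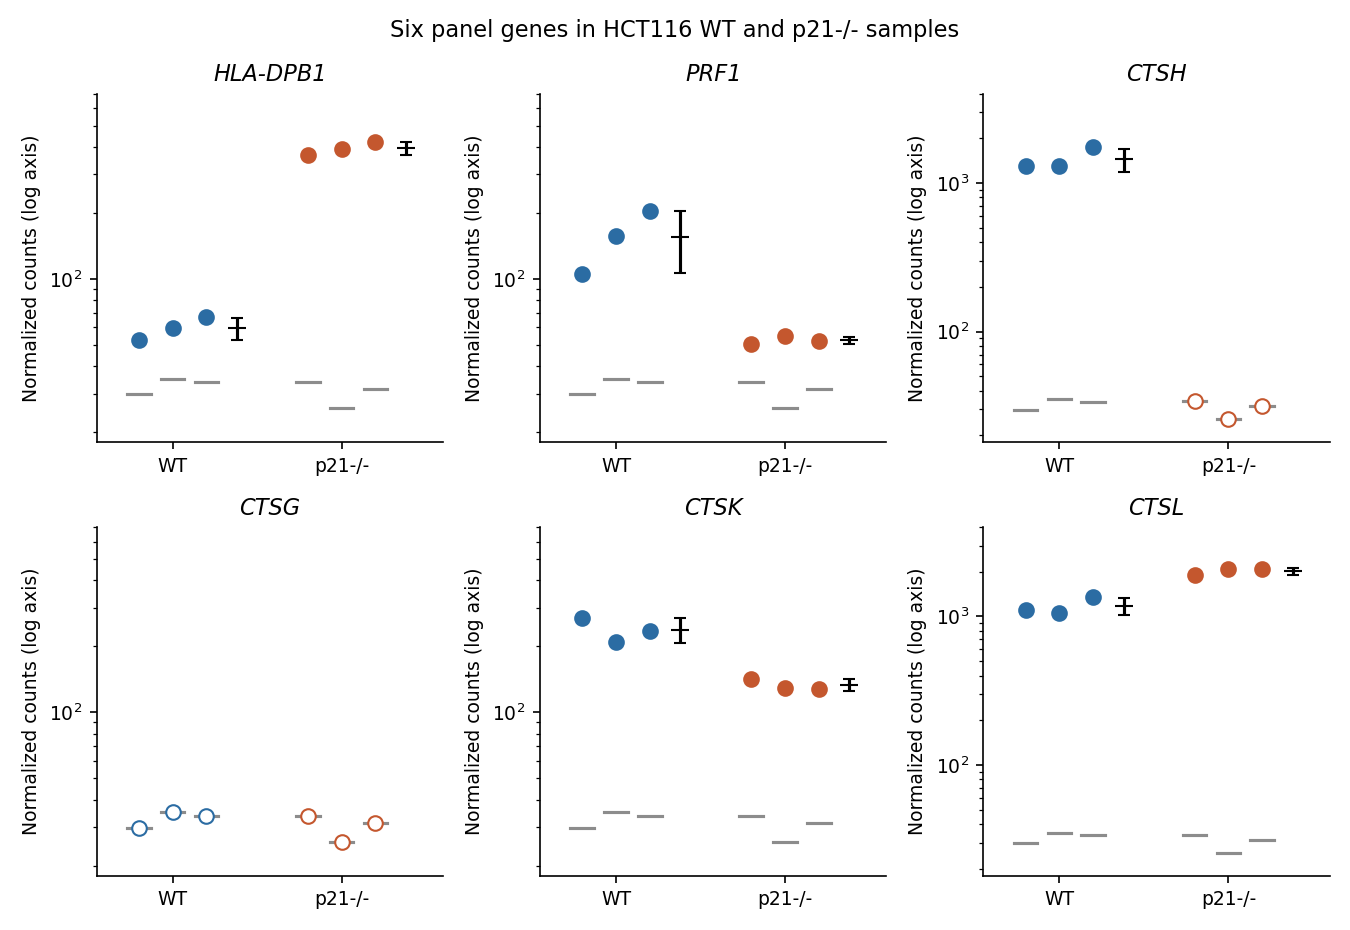
Normalized counts (log axis) of the 6 genes in the 3 WT samples (blue) and 3 p21-/- samples (orange), with replicates 1, 2 and 3 from left to right. Filled points were above the floor, open points hold the floor value, grey ticks mark the floor of each sample, and black bars give the mean and SD where all 3 samples were above it. HLA-DPB1 and CTSL were higher and PRF1, CTSH and CTSK lower in every p21-/- sample, while CTSG was at the floor throughout.

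The 3 cathepsin genes added by symbol differed in direction, with CTSL higher and CTSK lower in p21-/- cells and CTSG without a measured level. CTSL, encoding a broadly acting endopeptidase of the lysosome, had 1111, 1060 and 1354 normalized counts in WT and 1898, 2081 and 2080 in p21-/- samples. All p21-/- values were above all WT values. CTSL rose 1.72 times, from 1175 ± 157 normalized counts in WT to 2019 ± 106 in p21-/- samples (SD, n = 3 each), a log2 difference of 0.79 (standard error 0.103), with an adjusted p of 7.04e-06 (limma, Benjamini-Hochberg over 770 genes). CTSK, whose product degrades collagen in bone-resorbing osteoclasts, had 270, 209 and 234 normalized counts in WT and 142, 129 and 127 in p21-/- samples. Here all p21-/- values were below all WT values. CTSK fell to 56.0% of the WT mean, from 238 ± 30.6 normalized counts in WT to 133 ± 8.18 in p21-/- samples (SD, n = 3 each), a log2 difference of -0.83 (standard error 0.158, adjusted p = 0.00033 from limma). The call of CTSK was lost after quantile normalization, with a log2 difference of -0.45 (adjusted p = 0.0632 from limma). CTSG was at the floor in all 6 samples, so no difference could be measured.

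Of the 3 genes added by symbol, 1 was called higher in p21-/- cells, where 21.8% of all genes were, and 1 was called lower, where 26.0% were. In either direction 2 of the 3 were called, against 47.8% of the panel. Over all 6 genes the lines did not overlap for 5, against 52.2% of all genes, but 3 of these 5 were chosen for their difference. The same 5 genes were also apart in the barcode counts before normalization, where CTSH had only an upper limit in p21-/- samples. For CTSL these were 737 to 1158 in WT and 1759 to 2351 in p21-/- samples, and for CTSK 179 to 200 and 132 to 144. On the log2 scale WT samples varied more than p21-/- samples for HLA-DPB1, PRF1, CTSK and CTSL, the 4 genes that never touched the floor, as the panel did, with a median SD of 0.160 in WT and 0.0634 in p21-/- samples over the 446 genes. WT replicate 3 held the highest WT value of HLA-DPB1, PRF1, CTSH and CTSL, as it did for 54.0% of the 446 genes.

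**Figure D2:**
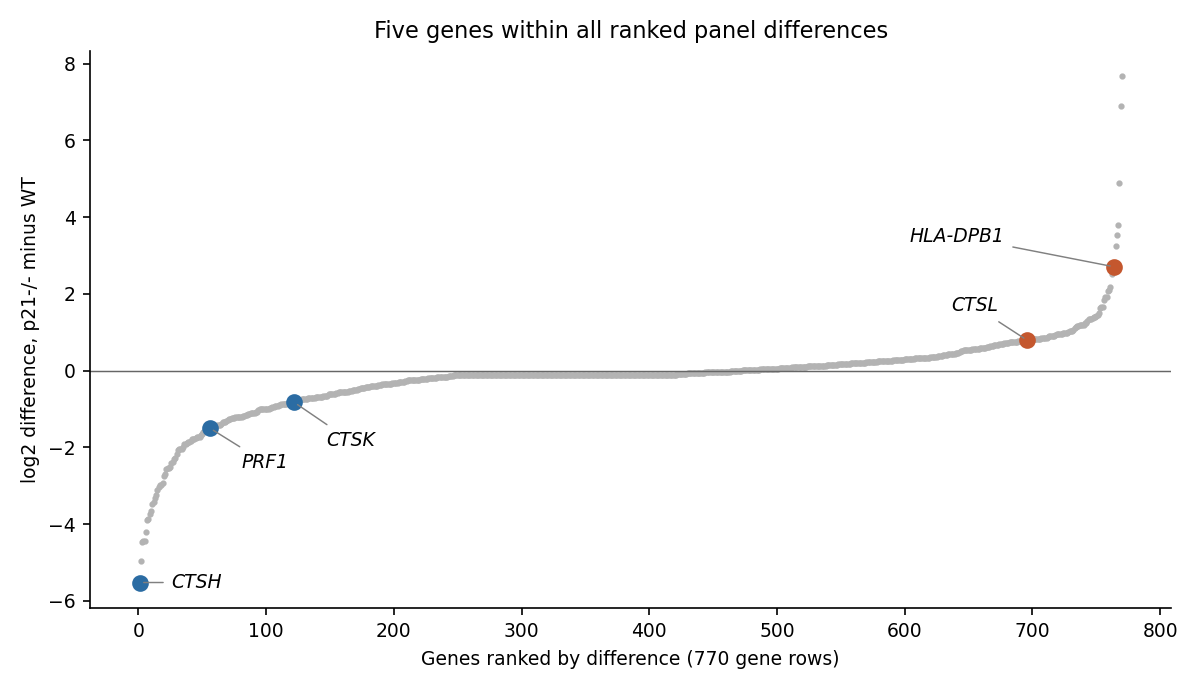
Each grey point is 1 of the 770 genes, ranked by its log2 difference (p21-/- minus WT, on the log2(value + 1) scale), with the 5 genes that were above the floor in at least 1 sample marked in orange (higher in p21-/-) or blue (lower). CTSH is the lowest point, HLA-DPB1 is in the steep upper end, and CTSK, CTSL and PRF1 lie between. The flat stretch is made of genes at the floor.

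The differences depend on how samples are scaled to each other. Over the 446 genes that every sample measured above its floor, the median log2 difference was -0.05 as deposited, 0.16 after median scaling, 0.13 after quantile normalization and -0.43 after scaling to 30 housekeeping candidates, the last chosen after seeing the data. Calls were 168 higher and 200 lower as deposited, 251 and 169 after median scaling, 214 and 155 after quantile normalization, and 97 and 529 with the housekeeping candidates. The sign of the difference was the same under all of these for HLA-DPB1, PRF1, CTSH, CTSK and CTSL. For HLA-DPB1, PRF1 and CTSH, chosen for their difference, this says little, since the shifts in the median were far smaller than their differences. CTSL had log2 differences between 0.40 and 1.00 over 17 alternatives, with a highest adjusted p of 0.00281 in limma.

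**Figure D3:**
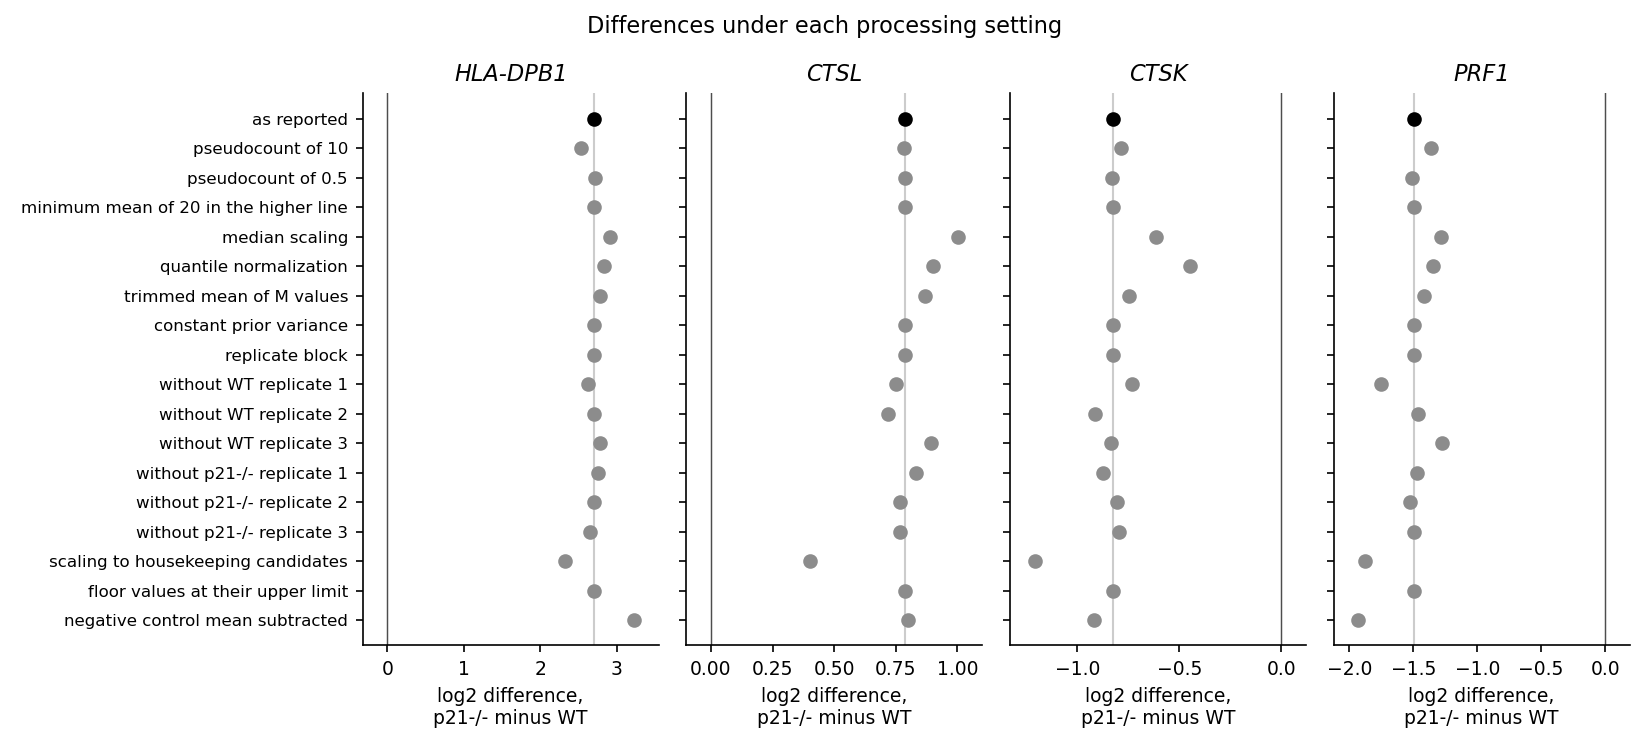
Log2 difference (p21-/- minus WT) of HLA-DPB1, CTSL, CTSK and PRF1 as reported (black) and under each of 17 other settings (grey), named on the left, with a dark vertical line at 0. No setting turned a sign, which says little for HLA-DPB1 and PRF1, since both were chosen for their difference. The values of CTSL ranged from 0.40 to 1.00 and those of CTSK from -1.21 to -0.45.

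Few partners of these genes were measured, and several were at the floor. Of 25 genes listed for MHC class II and its loading, HLA-DPB1 alone was a row of the table, and of 23 for MHC class I none was, so the alpha chain of HLA-DP, the invariant chain and the class II transactivator were not analysed here. Of 37 interferon signalling genes 6 were measured. IFNG, which encodes interferon gamma, and its chemokine target CXCL11 were at the floor in all 6 samples, and CXCL10 was above it in 1 p21-/- sample only. STAT3, a transcription factor downstream of cytokine receptors, fell from 1752 ± 171 normalized counts in WT to 1195 ± 17.2 in p21-/- samples (SD, n = 3 each), a log2 difference of -0.55 (standard error 0.0949, adjusted p = 0.000131 from limma). OAS1, an interferon-induced antiviral gene, was also called lower (log2 difference -0.61, adjusted p = 0.0388 from limma). The lines overlapped for OAS1, it was at the floor in 1 sample of each line, and its adjusted p was 0.291 without WT replicate 3 and 0.0656 without p21-/- replicate 2. The call of OAS1 was also lost under median scaling, quantile normalization, the trimmed mean of M values and a constant prior variance (adjusted p of 0.0637 to 0.268 from limma). None of the 6 genes was called higher in limma (0 at an unadjusted p below 0.05) and 2 were called lower, against 21.8% and 26.0% of all genes, and their median log2 difference was -0.14, against -0.12 over all 770 genes. A gene that never left the floor also has a value of -0.12, since the floors differ between samples.

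Of 32 genes listed for cytotoxic granules and killing, 8 were measured, PRF1 among them. Of the other 7, SRGN rose, IL18 fell and 5 were not called, against 21.8% of all genes called higher and 26.0% called lower. The median log2 difference of the 7 was -0.12, the value that the floors alone gave to FASLG, TNFSF10 and TNF. The panel's median is that same floor value, so their match cannot show whether the list moved like the panel. SRGN encodes serglycin, the granule proteoglycan that holds perforin and granzymes. It was at the floor in every WT sample and had 70.1, 58.3 and 64.6 normalized counts in p21-/- samples, so its level was at least 1.56-fold higher there. The adjusted p of SRGN from limma was 7.75e-05 with floor values as deposited and 0.00272 with the floor at its upper limit. IL18, which encodes a cytokine that activates natural killer cells, fell from 2339 ± 349 normalized counts in WT to 107 ± 10.8 in p21-/- samples (SD, n = 3 each), a log2 difference of -4.43 (standard error 0.134, adjusted p = 1.9e-13 from limma). The death ligands FASLG and TNFSF10 and the cytokine gene TNF were at the floor in all 6 samples. GZMK, the only granzyme measured, was at the floor in every WT sample and had 39.9 and 34.6 normalized counts in p21-/- replicates 1 and 2. IL15 had log2 difference -0.19 (standard error 0.164, adjusted p = 0.45 from limma).

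Of 53 genes listed for the lysosome and cathepsin inhibitors, 6 were measured, the 4 cathepsins among them. Without CTSH, 1 rose, 2 fell and 2 were not called, where 47.8% of all genes were called. The median log2 difference of -0.12 was that of CTSG and CST7, which held only floor values, so it describes no measured change. HPSE, encoding heparanase, which cleaves heparan sulfate and is itself activated by cathepsin L, fell from 853 ± 53.4 normalized counts in WT to 543 ± 37.6 in p21-/- samples (SD, n = 3 each), a log2 difference of -0.65 (standard error 0.107, adjusted p = 7.75e-05 from limma). CST7, which encodes cystatin F, a cathepsin inhibitor of leukocytes, was at the floor in all 6 samples.

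The measured leukocyte markers were at the floor in WT samples and at or below 41.0 normalized counts in p21-/- samples. Of 38 leukocyte markers 6 were measured, and PTPRC (CD45), ITGAM and NCAM1 held the floor value in each of the 6 samples. In WT samples none of the 6 was above the floor. In p21-/- samples CD163 was above it in 1, ITGB2 in 2 and ITGB7 in 3 of 3, the last at 39.9, 39.1 and 34.5 normalized counts. PTPRC, ITGAM and NCAM1, at the floor throughout, hold no measured difference. None of the 6 passed an adjusted p of 0.05 in limma, and 0 had an unadjusted p below it, where 47.8% of all genes were called. Their summed level was 179 to 210 normalized counts in WT and 180 to 216 in p21-/- samples, where the floors of 6 genes alone add up to 154 to 210. Of 13 epithelial markers measured, 11 were above the floor in every sample of both lines, EPCAM (5410 to 7021 normalized counts) and CDH1 (271 to 2933) among them. Of these 13, 1 was called higher and 9 lower in p21-/- samples, against 21.8% and 26.0% of all genes. The call higher was that of EPCAM, which 7 alternatives did not keep and which turned lower with housekeeping candidates (log2 difference -0.17). The summed level of the 13 markers was 38030 to 42480 normalized counts in WT and 18200 to 19120 in p21-/- samples.

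**Figure D4:**
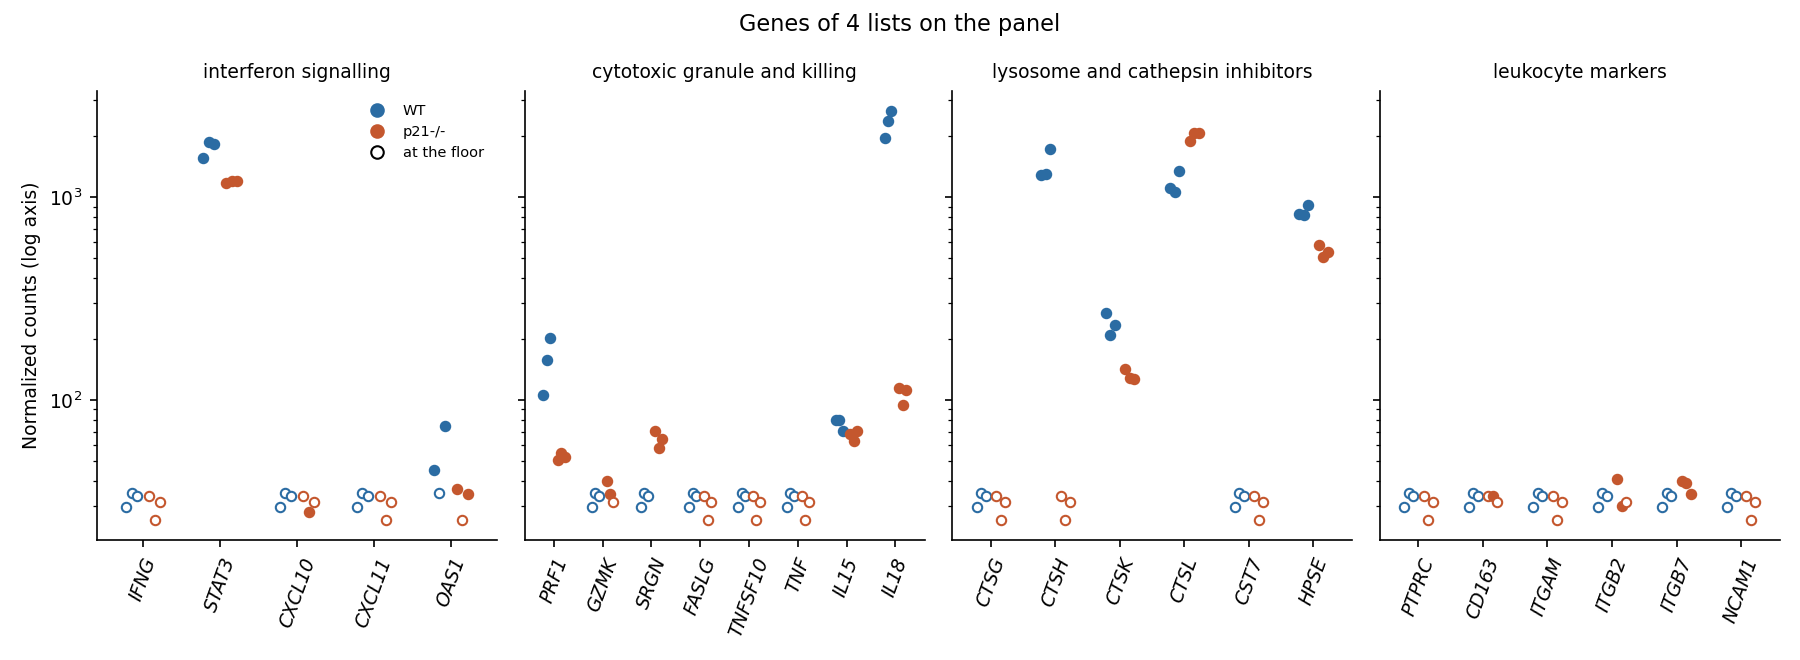
Normalized counts (log axis) of the reported genes of 4 lists in the 3 WT samples (blue) and 3 p21-/- samples (orange), with open points at the floor. SRGN leaves the floor in p21-/- samples, IL18 and CTSH are far lower there, and no leukocyte marker exceeds 41.0 normalized counts.

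The genes most like each of the 3 were found by the root mean square difference over the 6 samples between log2(value + 1) profiles, each taken relative to its own mean. For HLA-DPB1 these were WNT5A (0.123), ISL1 (0.191) and THBS1 (0.290), where the value of WNT5A rests on floor values in every WT sample. ISL1, a transcription factor gene, had 68.5 ± 8.54 normalized counts in WT and 436 ± 14.8 in p21-/- samples (SD, n = 3 each). For PRF1 they were ITGB4 (0.162), BMP7 (0.163) and SPOCK3 (0.171), the last at the floor in 2 p21-/- samples, and BMP7 went from 217 ± 44.0 normalized counts in WT to 79.4 ± 8.89 in p21-/- samples (SD, n = 3 each). For CTSH they were PROM1 (0.296), ID2 (0.552) and IL18 (0.555), values that rest on the floor values of CTSH in p21-/- samples. PROM1 was, like CTSH, at the floor in every p21-/- sample. These differences are in log2 units and serve as a description, since the 6 samples fall into the 2 lines.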

How the data were processed

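The 6 samples were grouped by their labels into 3 WT and 3 p21-/- samples, and 100 ng of total RNA of each had been hybridised to the NanoString panel. The deposited values are a signal, counts normalized by the authors in nSolver 3.0 to positive controls and to the geometric mean of 30 housekeeping genes, and not raw counts. This normalization is as the deposited description gives it. The table does not mark the housekeeping genes, and scaling to candidates moved the median log2 difference from -0.05 to -0.43, so the step could not be checked. The methods' NanoStringDiff analysis needs raw counts and was not repeated.

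Values under 500 and above the floor were, within 0.1 count, whole multiples of 1 factor per sample (100% of them), which gave barcode counts and totals of 867421 to 1187904 in WT and 1125126 to 1335467 in p21-/- samples. Poisson intervals at 95% cover counting error only.

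The comparison of the lines used limma (3.58.1, under R 4.3.3), fitted to log2(value + 1) with an intensity trend, no filter and no covariate, two-sided, with Benjamini-Hochberg adjustment over 770 genes. Standard errors are those of this fit, pooled over both lines and moderated towards the trend over all genes. The fit was checked on simulated data in which a gene had the same SD in both lines, so the check does not cover their unequal spread. The values include background, which understates changes of low genes, and a gene with 1 line at the floor has only a bound. An exact permutation test of 3 against 3 samples cannot give a two-sided p below 0.1. HLA-DPB1, PRF1 and CTSH received no p-value. The members and gene lists were chosen with earlier results of these data known. The genes named are the HLA- and CTS rows, the called genes of each list (at most 4 each way), further measured list members whose values describe the list and were named after they were seen, and the 3 nearest profiles of each chosen gene. Some list members are not reported here, although the counts of their lists include them. Alternatives were other pseudocounts, a filter, other scalings, a constant prior variance, the replicate block and leaving out each sample. Scaling to 30 of 38 housekeeping candidates from general knowledge, the floor at its upper limit and background subtraction were chosen after seeing the data.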

Additional observations from a re-analysis of the deposited data

How the results depend on the processing

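The 18 genes tested singly gave 306 values over 17 alternatives, of which 291 kept direction and call, 14 kept the direction and lost the call, and 1 changed sign. Of the 14, 6 were of OAS1 and 6 of EPCAM, 1 of CTSK and 1 of EGFL7. EPCAM changed sign, to -0.17, with scaling to housekeeping candidates. The log2 difference of HLA-DPB1 was 2.54 with a pseudocount of 10, 2.92 after median scaling, 2.84 after quantile normalization, 2.32 with housekeeping candidates and 3.23 with negative controls subtracted. That of PRF1 was -1.88 with housekeeping candidates and -1.93 with subtraction. That of CTSH was -5.16 with a pseudocount of 10, -5.90 with housekeeping candidates and -6.89 with subtraction, values that rest on floor values in p21-/- samples. Leaving out each sample gave 2.62 to 2.79 for HLA-DPB1, -1.75 to -1.28 for PRF1 and -5.60 to -5.38 for CTSH. The number of called genes was 332 to 395 without single samples, 626 with housekeeping candidates and 560 (168 higher and 392 lower) with the floor at its upper limit, and 643 and 613 genes did not overlap under the last 2 settings. Under these settings genes at the floor in all samples differ by construction. Called genes of the interferon list went from 2 to 1 under 6 alternatives, to 3 without WT replicate 1, to 6 with housekeeping candidates and to 5 with the floor at its upper limit, and those of the leukocyte list ranged from 0 to 5, of the cytotoxic list from 2 to 6, of the lysosome list from 2 to 5 and of the endothelial list from 0 to 7. Deviations from the line means correlated at 0.076, -0.054 and 0.052 between samples of equal number, so the numbers are not taken as pairs. With the replicate block 363 genes were called, and EPCAM (adjusted p = 0.0834) was the only tested gene of the text whose call changed under the pairing. A minimum mean of 20 removed no gene, since every floor is above it. Values below the floor cannot be read, which limits CTSH, CTSG and the leukocyte markers.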

Other observations

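Of 13 measured epithelial markers, 9 fell, 1 rose and 3 were not called, against 26.0% of all genes called lower and 21.8% called higher, with a median log2 difference of -1.73. Among those that fell were ELF3 (log2 difference -3.32), CDH1 (-3.23) and GRHL2 (-2.70), each with an adjusted p in limma of at most 2.38e-09. GRHL2 was at the floor in 1 p21-/- sample, so its value rests in part on the floor. EPCAM, encoding the adhesion molecule that marks epithelial cells, was called slightly higher, at 5692 ± 377 in WT and 6612 ± 358 normalized counts in p21-/- samples (SD, n = 3 each, adjusted p = 0.0444 in limma), a call that 7 alternatives did not keep, among them scaling to housekeeping candidates, which also turned its direction (log2 difference -0.17). Of 8 measured endothelial markers, 5 were at the floor in all 6 samples. EGFL7 was the only one of the 8 called, and it fell from 620 ± 109 normalized counts in WT to 427 ± 3.11 in p21-/- samples (SD, n = 3 each, adjusted p = 0.00335 in limma). After quantile normalization its log2 difference was -0.22 (adjusted p = 0.236 in limma) and no endothelial marker was called. With scaling to housekeeping candidates 7 of the 8 were called, where 626 of all 770 genes were.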
